A study of Mus musculus with 2 samples.

Results

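The genes of DNA replication licensing and of the replication fork were examined in cultured mouse B cells. They form a list of 43 named genes chosen by their role in 11 groups of replication proteins, with no threshold on their values. The list was drawn up with earlier results of these data known. The 43 are among the 18193 genes that a probe set annotated to a single gene measured. Each gene takes the value of its brightest such probe set, meaning the one with the highest mean of both arrays. All 43 were expressed, which here means a mean log2 intensity at or above 6.71, the median over probe sets that are not array controls. In all, 10717 genes met that level.

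The series holds 2 Affymetrix 3′ expression arrays of B cell RNA, 1 labelled miR-155 knockout and 1 labelled miR-155 wild-type, and its design compares these genotypes in cultured, activated B cells. Both labels are of male mice of the C57 background, and cells of both received cycloheximide, an inhibitor of translation elongation, at 100 ug/ml for 8 min at the end of culture. The culture text speaks of haematopoietic progenitors kept for 6 days with G-CSF and SCF, which is not a B cell culture. The labels do not say how the gene was disrupted, whether animals were pooled or how B cells were activated. Titles and genotype entries agree on which array is which, while the source names give the opposite genotype for both. The arrays are called the KO-labelled and the WT-labelled array here, by title, and every sign turns over if the source names are right.

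The microRNA that the genotypes concern is shown with its seed, bases 2 to 8, in capitals (RefSeq, GRCm38.p6, chr16:84714143-84714165, plus strand).
mmu-miR-155-5p: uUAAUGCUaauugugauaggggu
Mir155hg, its host transcript, had a log2 level of 10.88 on the KO-labelled array and 6.63 on the WT-labelled array, a difference of 4.25. The reading on the WT-labelled array was under the level for expression. This direction goes against the titles and genotype entries and goes with the source names. Whether that probe set lies in a deleted part is not known here, so which array is which was not settled by it.

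With 1 array per label there is no replicate spread, no difference below was tested, and sizes only are given. Precision is limited by the number of arrays. A technical measure is the gap between the log2 differences of the brightest and the next brightest expressed probe set of a gene. Its median was 0.084 over 4906 genes, and its 95th percentile was 0.312. In 26 of the 43 replication genes with such a pair, the median was 0.083. Intensities of different probe sets depend on their probes, so levels are compared between arrays and not between genes.

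DNA is copied from origins that are licensed before S phase and fired during it. The origin recognition complex (ORC) marks origins and, with CDC6 and CDT1, loads the MCM helicase, while geminin keeps CDT1 from loading it again. Kinases, CDC45 and GINS then turn the helicase on, and polymerases, the PCNA clamp and its loader copy the strands at the fork. In lymphocytes these genes are switched on as resting cells are driven into the cycle, largely by E2F transcription factors.

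Most replication genes read slightly higher on the KO-labelled array, across all complexes of the pathway. The log2 difference, KO-labelled minus WT-labelled, was above 0 for 37 of the 43 genes and below 0 for 6. Over all expressed genes 56.9% were above 0. The median of the 43 was 0.19, a ratio of 1.14, beside 0.03 for all expressed genes, and the range ran from -0.26 for Cdt1 to 1.09 for Cdc6. Differences of 0.25 or more were found in 17 of the 43 genes, against a share of 7.60% of all expressed genes. That size was chosen after the values were seen. In the other direction Cdt1 alone of the 43 was lower by 0.25 or more, a size reached by 6.40% of expressed genes. A difference of 0.5 or more was found in Cdc6 alone, beside 0.681% of expressed genes, and 0 of the 43 were lower by as much, beside 1.31%. Leaving Cdc6 out, the median of the other 42 genes was 0.19.

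**Figure D1:**
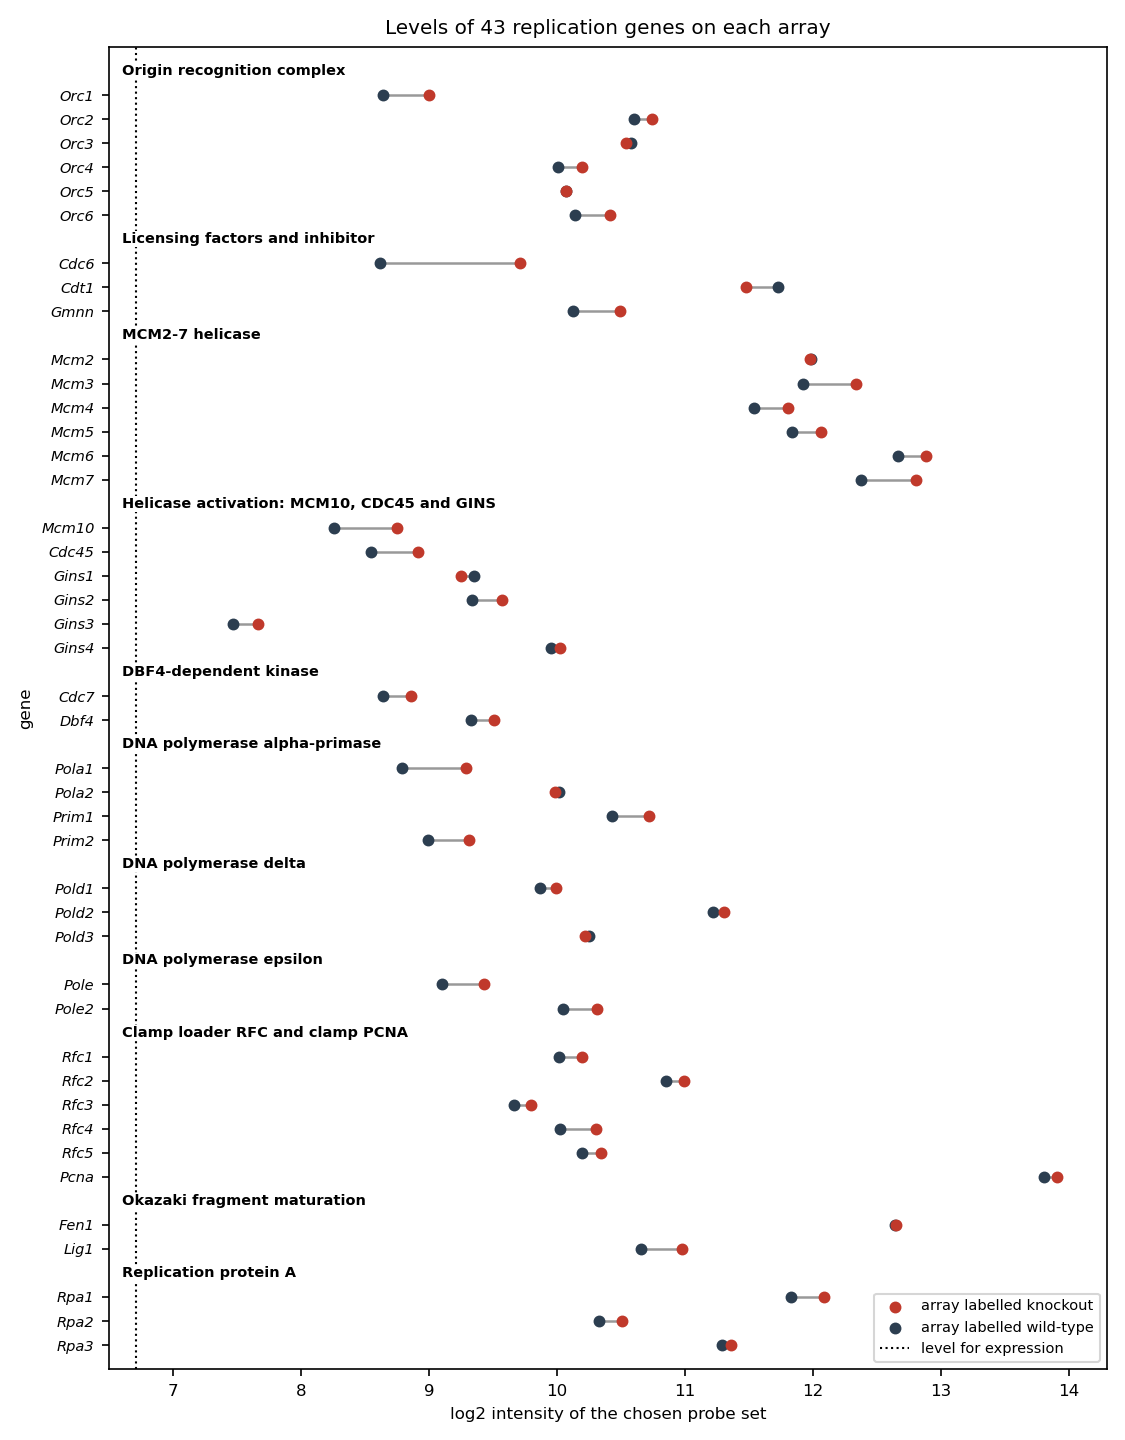
Log2 intensity (horizontal axis) of the chosen probe set of each of the 43 genes (rows, by complex) on the KO-labelled array (red) and the WT-labelled array (dark blue), 1 array each, with a grey line joining the pair and a dotted line at 6.71. The red point lies to the right in 37 rows, Cdc6 has the longest line, and Cdt1 has the longest line in the other direction.

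ORC genes ranged from near 0 to 0.36, with the largest subunit gene at the upper end. Of the 6, 2 were higher by 0.25 or more, beside 7.60% of all expressed genes. Orc1, whose protein level changes over the cycle in human cells, had a log2 level of 9.001 on the KO-labelled array and 8.643 on the WT-labelled array, a difference of 0.36. Its second expressed probe set gave 0.31. Orc6, the smallest and most divergent subunit, read 10.41 on the KO-labelled array and 10.14 on the WT-labelled array (0.27). Orc4 (0.19) and Orc2 (0.14) of the core complex were higher by less, and each of their 3 expressed probe sets was above 0. Orc5 was at 10.07 on both arrays, with a difference of 0.0014. Orc3 differed by -0.04 with its brightest probe set and by 0.10 and 0.08 with the other 2, so its sign depended on the probe set. The median of the 6 genes was 0.16.

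The licensing factors moved apart from each other, and they held both extremes of the 43 genes. Cdc6 encodes the ATPase that joins ORC to recruit the helicase. Its log2 level was 9.71 on the KO-labelled array and 8.62 on the WT-labelled array, a difference of 1.09 or 2.13-fold. It was 1 of 2 expressed genes that were higher by 2-fold or more, a share of 0.0187%, and Mir155hg was the other. In the opposite direction 15 expressed genes (0.140%) were lower by 2-fold or more, none of them among the 43. A single probe set measured Cdc6, so no second reading was at hand. Cdt1, its partner in loading, read 11.47 on the KO-labelled array and 11.73 on the WT-labelled array (-0.26). The second expressed probe set of Cdt1 gave -0.25. Both of its readings were thus lower on the KO-labelled array, and their gap was well under the 0.084 that is typical of such pairs. Gmnn, which encodes geminin, the inhibitor of CDT1, had 10.49 on the KO-labelled array and 10.12 on the WT-labelled array (0.37), from 1 probe set. Gmnn was among the 37 of the 43 genes that read higher, and Cdt1 among the 6 that read lower. A link between Gmnn and Cdt1 was not tested.

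The promoters of Cdc6 and Cdt1 are shown as those of the highest and the lowest of the 43 (RefSeq, GRCm38.p6, 250 bases before to 50 after the start site). Both hold a motif of E2F, the factor family that largely drives these genes. The windows are chr11:98907901-98908200 on the plus strand for Cdc6 and chr8:122567765-122568064 on the plus strand for Cdt1. Capitals mark matches to TTTCCCGC, TTTCGCGC, TTTGCCGC or TTTGGCGC on either strand.
Cdc6: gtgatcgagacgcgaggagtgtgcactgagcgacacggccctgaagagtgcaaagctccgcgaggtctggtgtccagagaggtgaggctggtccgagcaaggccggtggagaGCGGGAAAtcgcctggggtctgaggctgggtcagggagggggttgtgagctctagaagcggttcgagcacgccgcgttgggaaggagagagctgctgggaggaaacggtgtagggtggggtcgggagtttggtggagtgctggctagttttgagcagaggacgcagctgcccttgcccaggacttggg
Cdt1: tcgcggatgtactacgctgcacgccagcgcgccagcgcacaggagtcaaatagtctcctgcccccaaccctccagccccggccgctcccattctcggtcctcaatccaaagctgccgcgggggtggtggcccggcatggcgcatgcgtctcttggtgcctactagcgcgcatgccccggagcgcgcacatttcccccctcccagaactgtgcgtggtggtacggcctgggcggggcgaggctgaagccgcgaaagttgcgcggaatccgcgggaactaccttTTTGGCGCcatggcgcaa
In Cdc6 the match begins 138 bases before the start site and is on the reverse strand, and in Cdt1 it begins at base 33 of the transcript. Having a match thus went with the highest difference and with the lowest.

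Helicase genes had KO-labelled to WT-labelled ratios of 1.16 to 1.35, with Mcm2 as the exception at 0.992. The ring of MCM2 to MCM7 is the motor that unwinds the template. Mcm7 read 12.81 on the KO-labelled array and 12.38 on the WT-labelled array (0.43), and its 4 probe sets ranged from 0.33 to 0.48. Mcm3 read 12.34 on the KO-labelled array and 11.92 on the WT-labelled array (0.41). Of its 5 probe sets, 4 lay between 0.33 and 0.41, and the dimmest stood at -0.08. Mcm4 had 11.81 on the KO-labelled array and 11.54 on the WT-labelled array (0.26), whereas its second probe set gave 0.73. That gap of 0.46 was the widest of the 26 pairs, and the dimmer set has the _x_at suffix that Affymetrix gives to probes that can match other transcripts. Mcm5 (0.23, second set 0.32) and Mcm6 (0.21, second set 0.26) were higher by less. Mcm2 stood at 11.98 on the KO-labelled array and 11.99 on the WT-labelled array (-0.01), and its second probe set gave -0.05. The subunits of the ring thus did not share 1 difference, with a median of 0.25 over the 6.

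The promoters of Mcm7 and Mcm2 are printed as the members of the ring with the highest and the lowest difference. The windows are chr5:138171834-138172133 on the minus strand for Mcm7, the first of 2 start sites listed, and chr6:88898731-88899030 on the minus strand for Mcm2, with the same meaning of capitals.
Mcm7: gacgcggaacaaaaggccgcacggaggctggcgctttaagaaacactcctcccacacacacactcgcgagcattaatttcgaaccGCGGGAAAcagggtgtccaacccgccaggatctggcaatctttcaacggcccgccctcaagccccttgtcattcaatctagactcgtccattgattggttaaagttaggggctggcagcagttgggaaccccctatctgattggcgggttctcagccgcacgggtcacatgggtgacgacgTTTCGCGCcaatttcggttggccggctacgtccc
Mcm2: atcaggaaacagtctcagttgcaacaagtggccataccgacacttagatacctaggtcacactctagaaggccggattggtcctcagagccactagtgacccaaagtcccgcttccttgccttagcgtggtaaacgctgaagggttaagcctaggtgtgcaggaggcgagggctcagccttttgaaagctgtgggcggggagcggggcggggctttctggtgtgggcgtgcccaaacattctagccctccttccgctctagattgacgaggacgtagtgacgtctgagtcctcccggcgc
Mcm7 has 2 matches, 1 on each strand, at 165 bases before the start site and at base 17 after it, and the second of these overlaps a CCAAT box. Mcm2 has none in this window. The second window of Mcm7 has none either.

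Promoter windows were at hand for 35 of the 43 genes, with 44 windows in all. An E2F match of the letters above was found in 15 of the 44 (34.1%), beside 2.26% of all 32851 windows of the same length and 4.07% of the 11110 windows of expressed genes. The CCAAT box (CCAAT, both strands), the core of NF-Y sites, was in 52.3% of the members' windows, 37.4% of all windows and 37.7% of those of expressed genes. The cell cycle homology region (TTTGAA, both strands), known from promoters of late cell cycle genes, was in 18.2% of the members' windows, 17.9% of all windows and 11.8% of those of expressed genes. Of the 21 E2F matches 1 overlapped a CCAAT box. The 15 genes with an E2F match had a median difference of 0.23 and the 20 without had 0.18. A match of letters describes the window and does not show binding.

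Genes that turn the loaded helicase on spread widely. Mcm10, which helps the active helicase to separate and the fork to start, read 8.75 on the KO-labelled array and 8.26 on the WT-labelled array (0.49). Its other 2 probe sets lay under the level for expression. Cdc45, a subunit of the active helicase, had 8.92 on the KO-labelled array and 8.55 on the WT-labelled array (0.37), but its second probe set read 8.19 on both arrays. That gap of 0.37 was the only other one in the 26 pairs above the 95th percentile of 0.312. The GINS tetramer, which bridges CDC45 and the MCM ring, was uneven. Gins2 (0.23), Gins3 (0.19) and Gins4 (0.07) were higher on the KO-labelled array. Gins1 read 9.25 on the KO-labelled array and 9.35 on the WT-labelled array (-0.10). Cdc7, the kinase that phosphorylates the MCM ring at firing, differed by 0.22, and Dbf4, its activating subunit, by 0.18. Both subunits of that kinase thus lay near the median of the 43.

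Polymerase genes had a lower median for delta than for alpha or epsilon, with values that overlapped between alpha and delta. Polymerase alpha with primase makes the primers, epsilon extends the leading strand and delta the lagging strand. Pola1, the catalytic subunit of polymerase alpha, had 9.29 on the KO-labelled array and 8.79 on the WT-labelled array, a difference of 0.499 that came just after Cdc6. The primase genes Prim1 (0.29) and Prim2 (0.32) were also higher, with 0.41 from the second set of Prim1 and 0.35 and 0.06 from the other sets of Prim2. Pola2, the regulatory subunit of the same complex, was at 9.99 on the KO-labelled array and 10.02 on the WT-labelled array (-0.03). For polymerase epsilon, the catalytic gene Pole read 9.43 on the KO-labelled array and 9.10 on the WT-labelled array (0.33). Pole2, its second subunit, differed by 0.27. For polymerase delta the differences were smaller, with 0.12 for the catalytic gene Pold1, 0.09 for Pold2 and -0.03 for Pold3. The other 2 probe sets of Pold3 gave 0.20 and 0.21, and the second of Pold1 gave 0.25. The medians were 0.30 for alpha with primase, 0.30 for epsilon and 0.09 for delta, over 4, 2 and 3 genes, and with these probe set gaps the order of the complexes is not firm.

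The genes of the clamp and its loader differed in the same direction, by unequal sizes. PCNA is the ring that holds polymerases on the template, and replication factor C opens it. All 6 genes were higher on the KO-labelled array, by 0.10 to 0.28. Of all expressed genes 56.9% were above 0. Rfc4 read 10.30 on the KO-labelled array and 10.03 on the WT-labelled array (0.28). Pcna, a standard marker of cycling cells, stood at 13.91 on the KO-labelled array and 13.81 on the WT-labelled array (0.10), from 1 probe set. Between them lay the large loader subunit gene Rfc1 (0.18) and the small ones Rfc5 (0.15), Rfc2 (0.14) and Rfc3 (0.13). All 12 expressed probe sets of these 6 genes were above 0, without a share over all expressed probe sets to set beside them. The second sets of Rfc2, Rfc3 and Rfc4 gave 0.25, 0.22 and 0.35.

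The genes that finish lagging strand fragments read apart from each other. Lig1, the ligase that seals the nicks, had 10.98 on the KO-labelled array and 10.65 on the WT-labelled array (0.33), from 1 probe set. Fen1, the nuclease that trims the flaps, had 12.65 on both arrays (0.0058), and its second probe set gave 0.12. Replication protein A coats the single strands. Its large subunit gene Rpa1 read 12.09 on the KO-labelled array and 11.83 on the WT-labelled array (0.26, second set 0.28). Rpa2 (0.18) and Rpa3 (0.07) followed.

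**Figure D2:**
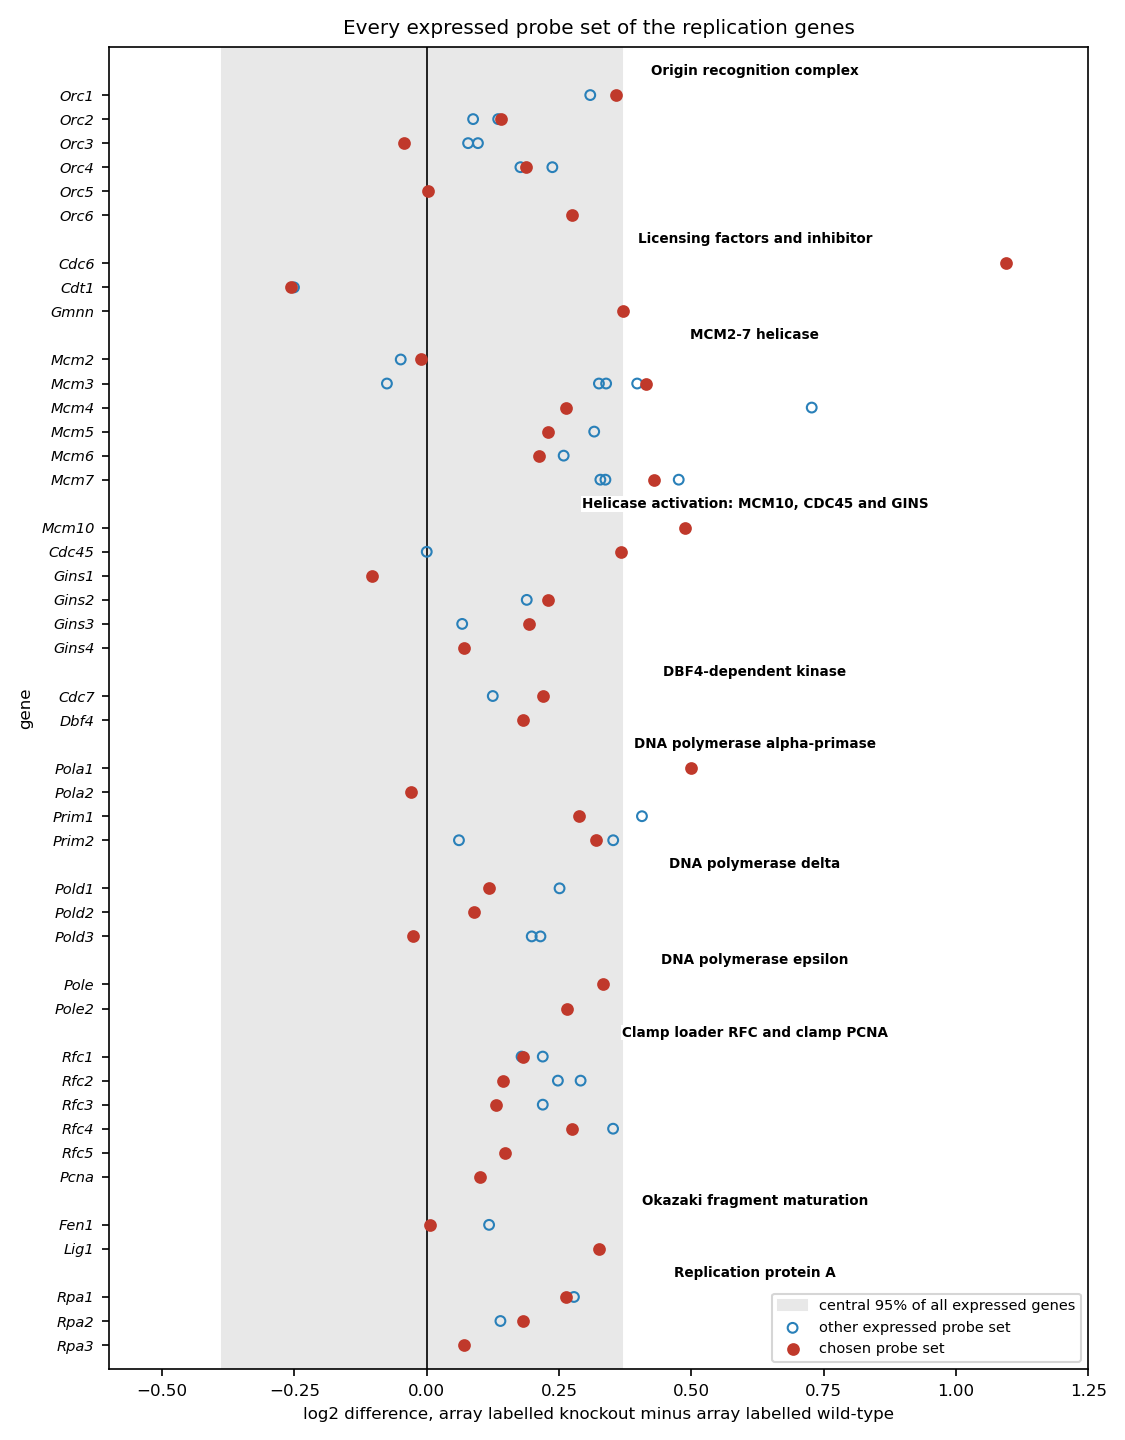
Log2 difference, KO-labelled minus WT-labelled (horizontal axis), of every expressed probe set of the 43 genes (rows, by complex), with the chosen set filled and the others open, and the central 95% of all expressed genes shaded (-0.39 to 0.37). Most points lie right of 0 inside the shaded band, Cdc6 lies far outside it, and open points leave their filled ones most in Mcm4, Mcm3 and Cdc45.

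Taking every expressed probe set of the 43 genes rather than the chosen one, 71 of 81 were above 0 and 9 below, with a median of 0.21. The share over all expressed probe sets was not computed, and by gene it was 56.9%. Probe sets of the same gene are not independent readings. Of the 26 genes with several expressed sets 22 had all of them on the same side of 0. The exceptions were Orc3, Mcm3, Cdc45 and Pold3. The share over all genes with several expressed sets was not computed either. The chosen sets of 7 genes (Mcm2, Mcm3, Mcm5, Mcm7, Gins2, Pold1 and Fen1) have the _s_at or _x_at suffix of probes that can match related transcripts. Against the central 95% of expressed genes, 6 of the 43 lay above its upper end of 0.37 and 0 below its lower end. The 6 were Cdc6, Pola1, Mcm10, Mcm7, Mcm3 and Gmnn, the last of which sat on the edge.

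**Figure D3:**
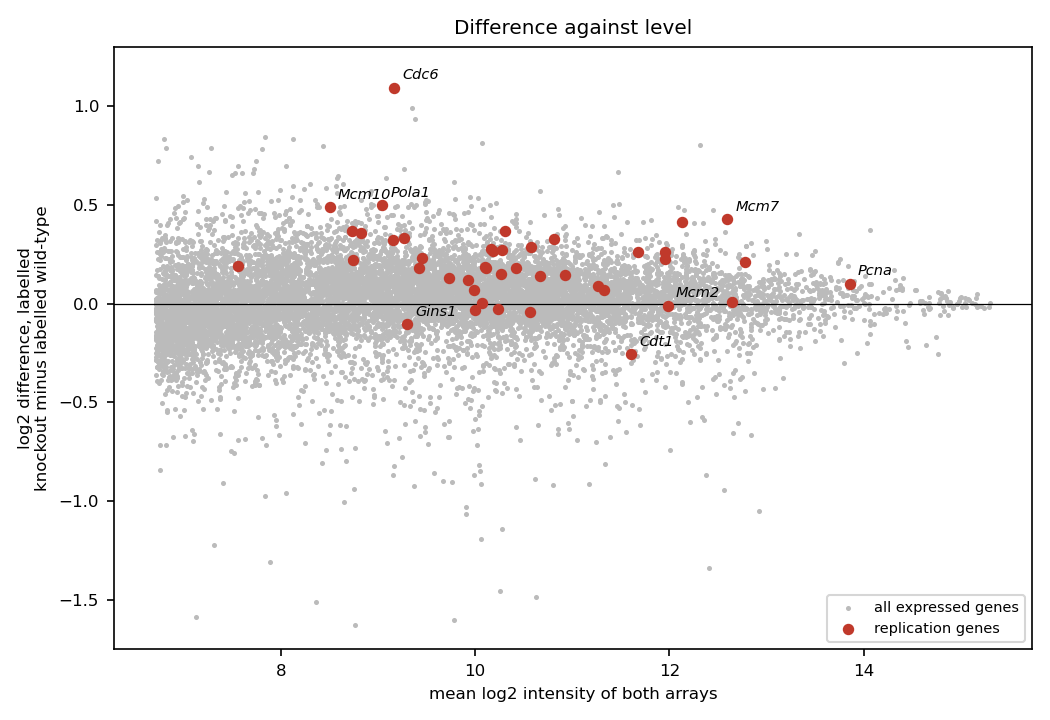
Log2 difference, KO-labelled minus WT-labelled (vertical axis), against mean log2 intensity of both arrays (horizontal axis) for expressed genes (grey) and the 43 replication genes (red), with 8 of them named. Mir155hg, at 4.25, lies beyond the axis. The red points stay mostly above 0 at all levels.

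Higher readings were found among dim and bright members alike. Their mean log2 levels ran from 7.56 to 13.86, and the 8568 expressed genes in that range had a median difference of 0.04, with 61.5% above 0. Across the 43 genes, which are read from the same 2 arrays and are not independent replicates, difference and mean level had a Pearson r of -0.26 and a Spearman rho of -0.25.

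Genes that work with the 43 were also mostly higher on the KO-labelled array. Of 50 other replication genes 48 were measured and 47 expressed, and 44 of these (93.6%) were higher on the KO-labelled array and 3 lower, beside 56.9% higher over all expressed genes. Their median was 0.18, and 14 of the 47 (29.8%) were higher by 0.25 or more. The difference between them and the 43 genes was not tested. The highest was Dscc1, a subunit of the alternative clamp loader of sister chromatid cohesion, with 8.46 on the KO-labelled array and 7.94 on the WT-labelled array (0.53). Dtl, the receptor of the ubiquitin ligase that marks CDT1 for destruction in S phase, followed with 9.74 on the KO-labelled array and 9.23 on the WT-labelled array (0.51). Most genes of this list were higher, by less than Dtl in all but Dscc1. A link between Dtl and Cdt1 was not tested, and protein was not measured. Topbp1, a scaffold of origin firing, differed by 0.38, and by 0.24 with the mean of its probe sets. The lowest were the histone chaperone gene Asf1a (-0.07), the ribonuclease gene Rnaseh2c (-0.05) and the nuclease gene Dna2 (-0.04).

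Mitotic genes, from a later part of the cycle, were set beside these. Of 20 listed, 18 were expressed, and 17 of these (94.4%) were higher on the KO-labelled array and 1 lower, with a median of 0.29. A difference of 0.25 or more was found in 13 of the 18 (72.2%), beside 39.5% of the 43 replication genes and 7.60% of all expressed genes. The kinesin gene Kif11 read 7.93 on the KO-labelled array and 7.27 on the WT-labelled array (0.66). The kinetochore gene Nuf2 (0.65) and the kinase gene Aurkb (0.49) came next. The lowest were Plk1 (0.18), Tpx2 (0.13) and Ndc80 (-0.02). The difference between the mitotic and the replication genes was not tested.

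**Figure D4:**
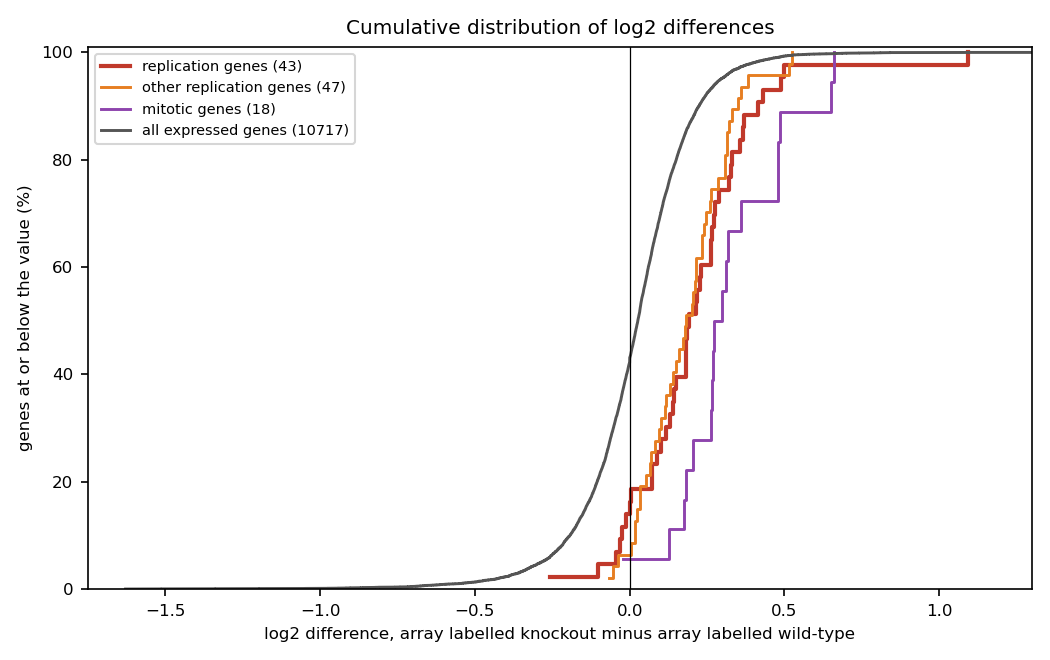
Share of genes (vertical axis, percent) with a log2 difference, KO-labelled minus WT-labelled, at or below the value on the horizontal axis, for the 43 replication genes, 47 other replication genes, 18 mitotic genes and 10717 expressed genes. Mir155hg, at 4.25, lies beyond the axis. The 3 lists run to the right of all expressed genes over most of their length, and Cdc6 is the last step of the red line.

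Cell type markers also differed between the arrays. Summed linear intensities below are over all measured markers of a list, and counts and medians are over the expressed ones. Bright genes weigh most in a sum, and readings under the level for expression are included in it. All 11 measured B cell markers were expressed and 10 were higher on the KO-labelled array (median 0.18), with sums of 81417 on the KO-labelled array and 72181 on the WT-labelled array. Spib, an ETS factor of B cells, differed by 0.81, more than any of the 43 genes but Cdc6. Of 9 macrophage and monocyte markers 8 were expressed, 2 higher and 6 lower (median -0.22), with sums of 1617 on the KO-labelled array and 1874 on the WT-labelled array. Itgam was the 1 under the level for expression.

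Of 7 T cell markers 6 were expressed, 4 higher and 2 lower (median 0.14). Their sums were 1252 on the KO-labelled array and 1076 on the WT-labelled array. Cd2 (0.66) and Thy1 (0.56) were the highest, and Cd3d (-0.12) and Cd8a (-0.08) were the lower ones. Of 6 dendritic cell markers 3 were expressed, 1 higher and 2 lower (median -0.31), with sums of 5062 on the KO-labelled array and 6131 on the WT-labelled array. The higher one was Batf3 (0.37), and the lower ones were Zbtb46 (-0.44) and Bst2 (-0.31). Bst2 was the brightest of the list, at 11.81 on the KO-labelled array and 12.12 on the WT-labelled array. For neutrophils and their precursors 3 of 10 markers were expressed, all 3 lower (median -0.05), with sums of 1440 on the KO-labelled array and 1451 on the WT-labelled array, and Elane, Mpo and Csf3r were among those under the level for expression. For stem and progenitor cells Flt3 (-0.27) and Hoxa9 (-0.12) were the 2 expressed of 7, with sums of 1012 on the KO-labelled array and 1172 on the WT-labelled array, and Kit and Cd34 were not expressed. For erythroid cells 2 of 5 were expressed, both higher (median 0.06), with sums of 545 on the KO-labelled array and 554 on the WT-labelled array. B cell markers were thus mostly higher on the KO-labelled array, as the replication genes were, beside 56.9% higher over all expressed genes. Macrophage and monocyte markers were mostly lower there, and T cell markers were mixed. Many of these readings were dim. Lyz2, Cd14, Fcgr1 and Cd68 lay near the level for expression of 6.71, at 6.88, 6.85, 6.69 and 6.88 on the KO-labelled array. On the WT-labelled array they read 7.12, 7.21, 6.89 and 7.12. No T cell marker exceeded 7.92 on the KO-labelled array or 7.54 on the WT-labelled array. The dendritic cell, neutrophil, progenitor and erythroid lists had 3 or fewer expressed genes each. The part of cell makeup in the differences of the replication genes was not tested. Fewer cells of a type and less RNA per cell cannot be told apart in such samples.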

How the data were processed

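Mouse B cell RNA was read on 2 Affymetrix arrays, 1 per genotype label (miR-155 knockout and wild-type). The deposited table gives log2 intensities for 45101 probe sets. The log2 unit was read from the values. How the authors summarised and normalized them is not given in the sources used here, and the medians of the arrays were 6.70 (labelled knockout) and 6.72 (labelled wild-type). The platform annotation names a single gene for 34945 probe sets, and 34741 matched RefSeq GRCm38.p6 by Entrez number with 0 symbols changed.

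Each gene took its probe set with the highest mean, and genes at or above 6.71 counted as expressed. No test was possible with 1 array per label. Every gene of the 43 is named, and of the other replication genes and the mitotic genes the 3 highest, the 3 lowest and those at 0.5 or more. Cell type markers are given by list, and those singled out from a list were chosen after their values were seen. The members and lists were chosen with earlier results of these data known, and the size of 0.25 after the values were seen. The alternatives were the mean of all probe sets, plain _at probe sets, quantile normalization, subtraction of a loess curve (span 0.3), no filter on level and a stricter one, at the 75th percentile. The computations were checked on simulated data with planted differences larger than those of every member but Cdc6. That check does not show how well smaller differences are read. Values were computed in Python 3.11.15 with NumPy 2.4.6 and pandas 2.3.3, loess curves with statsmodels 0.14.6 and figures with matplotlib 3.10.9.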

Additional observations from a re-analysis of the deposited data

How the results depend on the processing

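The median difference of the replication genes stayed between 0.16 and 0.19 under the 6 alternatives. The number above 0 was 39 of 42 with the mean of all probe sets, beside 59.1% of all expressed genes under that setting. With plain _at probe sets it was 31 of 37, beside 57.4%. Quantile normalization and the loess curve each gave 35 of 43, beside 49.2% and 47.4% of all expressed genes under those settings. The other replication genes gave 38 of 47 after the loess curve and a median of 0.13 with the mean of all probe sets. The count at 0.25 or more was 11 after the loess curve was subtracted, beside 5.30% of all expressed genes under that setting. With plain _at probe sets Cdc6 had no value, since its only set has another suffix, so the count at 0.5 or more was 0, the median of the licensing factors was 0.060 over 2 genes and that of fragment maturation was 0.33 over Lig1 alone. When genes had to reach the 75th percentile of level, 3 of the 6 helicase activation genes were left, with a median of 0.071. Signs turned with the mean of all probe sets for Orc3 (0.044), Pola2 (0.11), Pold3 (0.13), Asf1a (0.050), Dna2 (0.056) and Rnaseh2c (0.0016). They also turned for Orc5 (-0.025 with quantile normalization, -0.046 with the loess curve) and Fen1 (-0.0085 and -0.020), both near 0 to begin with. Among single genes, Mcm4 became 0.50, Mcm10 0.15, Cdc45 0.18, Mcm3 0.28, Topbp1 0.24, Dscc1 0.41 and Kif11 0.47 with the mean of all probe sets, which brings in sets under the level for expression for Mcm10 and takes Pola1 below that level. No paired analysis was possible because each label has 1 array, and for the same reason no array could be left out. A value counted as moved where it changed by more than 0.084, the technical measure.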
